A study of Mus musculus with 238 samples.

Results

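Fkbp5, Tsc22d3, Sgk1, Ddit4, Errfi1 and Nfkbia are genes whose RNA is known to rise when glucocorticoid hormone binds its receptor. The 6 genes were chosen by name, and all 6 have a row among the 21076 genes of the deposited mouse count table. The table holds 238 bulk RNA libraries from 15 brain regions and liver of C57BL/6JN mice, all 19 months old. Females formed the diet experiment, with 4 freely fed mice (AL) and 5 mice under dietary restriction (aDR, written DR for their livers). Males formed the plasma experiment, with 3 mice given plasma of young mice (YMP) and 4 given saline (PBS) by retro-orbital injection. Each brain library is 1 dissected region of 1 mouse, liver was sequenced in the diet experiment, and sex is the same as experiment throughout. The labels give no degree or duration of restriction, no number or dose of injections and no hour of sampling.

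Glucocorticoids, mainly corticosterone in mice, are released by the adrenal cortex under the control of the hypothalamus and pituitary, with a daily rhythm and in response to stress and fasting. The hormone binds the glucocorticoid receptor (Nr3c1) and the mineralocorticoid receptor (Nr3c2), which are held ready by heat shock chaperones, move to the nucleus and bind DNA at inverted repeats of a short core site. Fkbp5 encodes a co-chaperone that lowers the hormone affinity of the receptor, and thereby forms a feedback loop on it. Tsc22d3 encodes the leucine zipper protein GILZ, which restrains inflammatory transcription. Sgk1 encodes a kinase that regulates ion channels and transporters and is abundant in myelinating glia. Ddit4 (also called REDD1) restrains mTOR complex signalling, Errfi1 (MIG6) inhibits the EGF receptor, and Nfkbia encodes the inhibitor that keeps NF-kappa-B in the cytoplasm.

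In GENCODE M21 on the GRCm38 build, each of the 6 is a protein-coding gene. Fkbp5 lies on the minus strand at chr17:28399094-28517527, Tsc22d3 on the minus strand at chrX:140539528-140600659 and Sgk1 on the plus strand at chr10:21882184-21999903. Ddit4 lies on the minus strand at chr10:59949669-59951834, Errfi1 on the plus strand at chr4:150853919-150868892 and Nfkbia on the minus strand at chr12:55489410-55492647. The libraries carry no strand, but 0 exon bases of these 6 genes are shared with exons of another annotated gene.

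The 250 bases before each RefSeq transcription start (GRCm38.p6) were searched on both strands for the receptor's core site (one arm of the repeat), AGAACA or TGTTCT, and for the full inverted repeat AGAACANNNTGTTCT. The core site stood in 16.1% of 32851 such windows and the full repeat in 0.00913%, which is 3 windows. All 6 genes matched the promoter table, with 14 start sites. A core site was found at 4 of the 14 starts, 3 of them in Sgk1 and 1 in Tsc22d3, and 1 of the 3 windows with a full repeat belonged to Sgk1. The full repeat of Sgk1 lay 189 to 175 bases before the start, and the other core site of that window lay 242 to 237 bases before it. Each full repeat holds 2 core sites, so these matches overlap. A looser form, GNACANNNTGTNC, stood in 0.387% of windows and among the 6 genes only at that same Sgk1 site. The windows below are shown because they contrast these cases: Sgk1 with the full repeat, Tsc22d3 with a single core site and Fkbp5 with neither. Capitals mark the core sites and, in the longest capital run, the full repeat with its 3 spacer bases. Each window is written on the strand of the gene, up to the base before the start, and 137 bases of the Tsc22d3 window that are exonic in the annotation were left out.
Sgk1, chr10:21993640-21993889, plus strand: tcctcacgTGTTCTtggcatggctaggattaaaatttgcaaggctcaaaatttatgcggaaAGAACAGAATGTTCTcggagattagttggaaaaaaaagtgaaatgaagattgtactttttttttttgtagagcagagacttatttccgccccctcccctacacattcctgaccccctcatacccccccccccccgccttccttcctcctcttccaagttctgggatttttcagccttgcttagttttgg
Tsc22d3, chrX:140600660-140600772, minus strand: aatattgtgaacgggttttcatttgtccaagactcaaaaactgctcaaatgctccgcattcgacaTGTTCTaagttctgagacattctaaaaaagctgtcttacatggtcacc
Fkbp5, chr17:28486150-28486399, minus strand: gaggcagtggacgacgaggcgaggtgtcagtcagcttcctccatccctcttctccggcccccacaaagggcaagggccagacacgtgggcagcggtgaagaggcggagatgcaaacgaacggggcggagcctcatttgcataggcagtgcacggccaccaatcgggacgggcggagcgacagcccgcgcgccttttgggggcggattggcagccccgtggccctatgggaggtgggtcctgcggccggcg
The windows of Fkbp5, Ddit4, Errfi1 and Nfkbia held no core site. These are matches of letters in a short window, and no binding was measured.

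The median library held 8.44 M counts (mega, M), the shallowest 0.606 M and the deepest 32.4 M, and 6 libraries were under 2 M. The 6 genes were counted in all 238 libraries, and each passed the filter on low counts in 31 of 31 region fits. Ddit4 was the thinnest, with a median of 135 counts and a lowest count of 5, and Tsc22d3 the deepest, with a median of 1246.5. Most regional marker genes stood at rank 1 to 3 of all regions in their own region, but the labelled choroid plexus stood only at rank 3 of 16 for Ttr, which encodes transthyretin, with a lowest AL library of 598 CPM. The pons library of aDR mouse 67 had 23.4% of its counts in 10 genes, against 7.12% in the next pons library, and pons values are therefore also given without it. CPM below are counts per M of TMM-scaled library size, and in bulk tissue a smaller number of cells of one type and less RNA per cell cannot be told apart.

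In freely fed mice, the 6 genes had different regional distributions. Fkbp5 was highest in liver (98.2 ± 16.1 CPM; mean ± SD, n = 4) and, within the brain, in the anterior hippocampus (75.4 ± 9.08), where the receptors of the hormone are known to be abundant. It was lowest in cerebellum, at 9.84 ± 0.959 CPM, below pons at 26.9 ± 1.80. Liver against anterior hippocampus and pons against cerebellum were the neighbours in this order whose libraries did not overlap, and the ranges of all other neighbours overlapped. The same ends of the brain order were seen in PBS males, with 71.4 ± 18.7 CPM in anterior hippocampus and 8.33 ± 2.05 in cerebellum.

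Tsc22d3 was highest in hindbrain and thalamus, with 239 ± 25.2 CPM in AL medulla, 215 ± 27.4 in pons and 195 ± 21.9 in thalamus, and its lowest brain mean, 76.5 ± 17.1, in caudate putamen. In this order only cerebellum (166 ± 9.87) and visual cortex (145 ± 5.91) were neighbours without overlap. Sgk1 was highest in white matter and striatum, with 234 ± 6.41 CPM in corpus callosum (n = 3) and 205 ± 33.9 in caudate putamen. Hypothalamus, at 82.0 ± 12.6, and entorhinal cortex, at 55.8 ± 2.10, were its only neighbours without overlap, and entorhinal cortex, olfactory bulb and liver (47.9 ± 7.21) formed the low end. The 2 regions with the highest AL mean of Sgk1, corpus callosum and caudate putamen, were thus the 2 with the lowest mean of Tsc22d3.

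Ddit4, Errfi1 and Nfkbia differed less between brain regions. The highest AL brain mean was 7.66 times the lowest for Fkbp5, 4.46 times for Sgk1 and 3.13 times for Tsc22d3, against 2.08 for Ddit4, 1.64 for Errfi1 and 1.53 for Nfkbia. Liver separated from every brain region in all AL libraries for these genes. It was above them for Errfi1 (1208 ± 216 CPM in liver against 67.6 ± 4.49 in anterior hippocampus, the highest brain mean) and for Nfkbia (150 ± 30.6 against 51.0 ± 6.00 in corpus callosum), and below them for Ddit4 (5.08 ± 1.33 against 9.55 ± 1.45 in visual cortex).

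Per kilobase of exon, the mean AL brain level was 30.7 CPM for Tsc22d3, 26.3 for Nfkbia, 26.0 for Sgk1, 15.1 for Errfi1, 8.86 for Ddit4 and 4.34 for Fkbp5. In liver the per-kilobase level of Errfi1 was 337 CPM and that of Nfkbia 92.9, above Tsc22d3 (38.3), Fkbp5 (10.4), Sgk1 (9.77) and Ddit4 (2.89). Fkbp5 was thus the least abundant of the 6 per length of annotated exon in brain, while its CPM were similar to those of Nfkbia. The exons of all annotated transcripts of Fkbp5 together span 9468 bases, against 1610 for Nfkbia. Which transcripts were present was not measured, so the order per length of the RNA itself is not known.

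**Figure D1:**
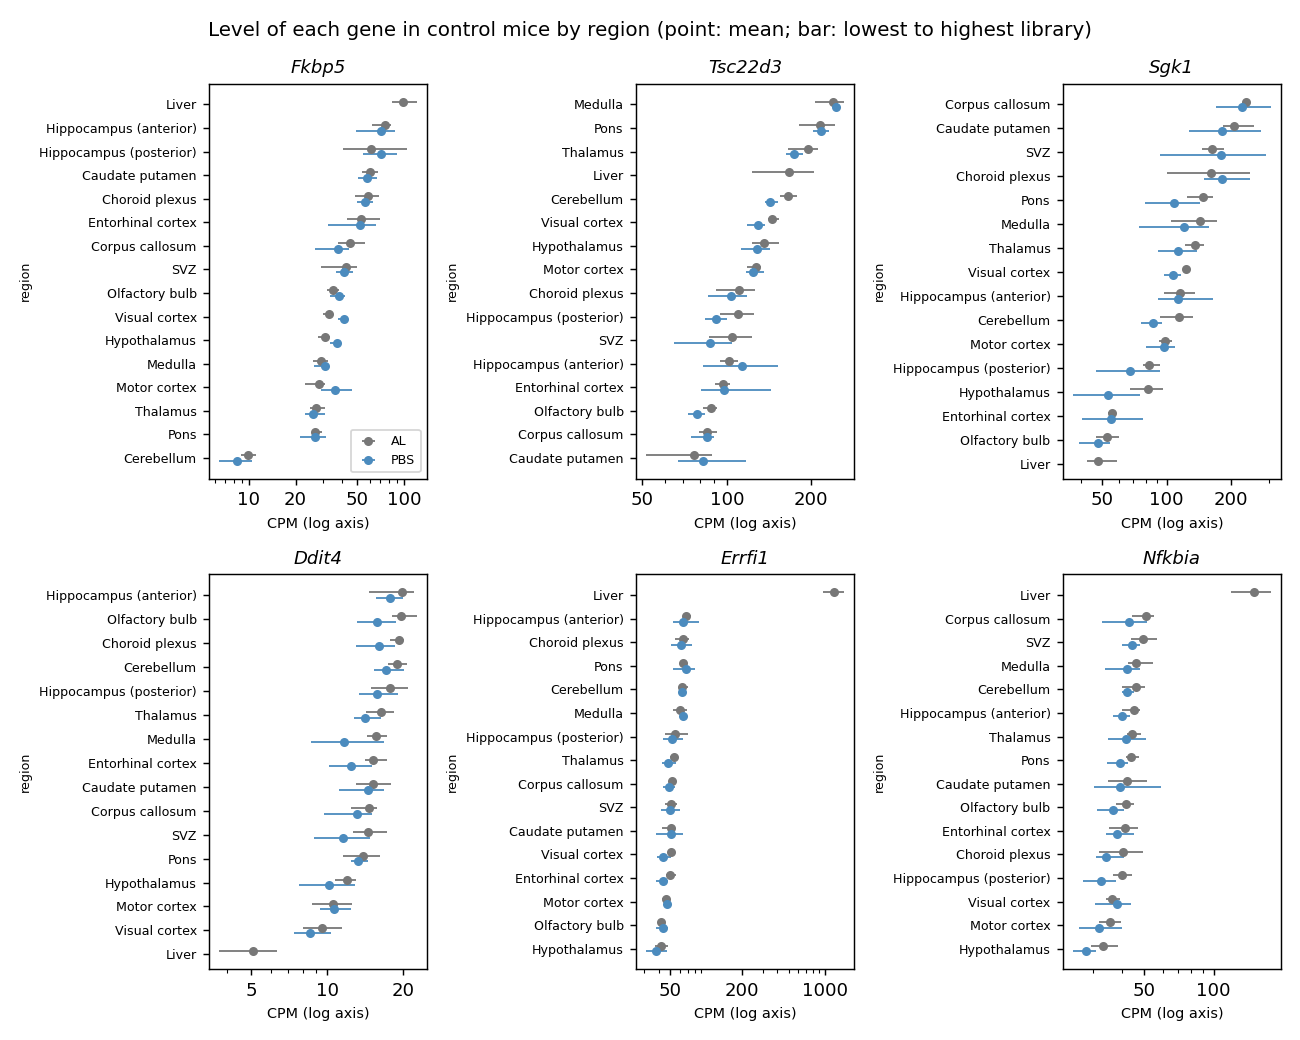
CPM on a log axis (horizontal) of each gene in AL mice (grey) and PBS mice (blue) by region, ordered by the AL mean; points are group means and bars run from the lowest to the highest library. Fkbp5 spans 7.66-fold between AL brain means with cerebellum at the bottom, while Nfkbia spans 1.53-fold and has its highest level in liver.

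Dietary restriction was compared first over the whole brain, with 1 value per mouse: the mouse's mean log2 CPM over its regions after regional differences were removed (131 libraries). All 6 genes had a higher mean in aDR than in AL mice, and 1 of them, Tsc22d3, passed the test (limma on mouse values, Benjamini-Hochberg adjusted p under 0.05 over 15616 genes). Of all genes tested, 0.922% were called, 46.6% were higher in aDR mice, and the median log2 change was -0.00623. The differences of Tsc22d3, Fkbp5 and Sgk1 were similar in size, at 1.42-, 1.48- and 1.53-fold, while the mice of a group varied more for Fkbp5 and Sgk1.

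Tsc22d3 rose in aDR mice. Its mouse values were 7.62, 7.57, 7.31, 7.40 and 7.63 log2 CPM in aDR mice 61, 62, 64, 65 and 67, and 6.93, 7.05, 7.03 and 7.01 in AL mice 63, 66, 68 and 69. Every aDR mouse was above every AL mouse. The change was 0.50 on the log2 scale (SE 0.0694, adjusted p = 0.0208), or 1.42-fold. Leaving out any one of aDR mouse 62 or AL mice 63, 66, 68 and 69 took the adjusted p above 0.05, to between 0.0617 and 0.0737, with a change of 0.48 to 0.52.

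Fkbp5 had the second smallest p of the 6. Its aDR mouse values were 5.88, 5.64, 5.72, 5.55 and 6.24 log2 CPM for mice 61, 62, 64, 65 and 67, against 5.23, 5.09, 5.40 and 5.27 in AL mice 63, 66, 68 and 69. The groups did not overlap, and mouse 67 lay well above the other aDR mice. The difference of 0.56 (SE 0.133, 1.48-fold) had an adjusted p of 0.0942 and was not called. Without mouse 67 the difference was 0.45 and the adjusted p 0.0581.

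Sgk1 had the largest mean difference and the widest spread. Mice 61 and 67 were highest, at 7.94 and 7.81 log2 CPM, followed by mice 65, 62 and 64 at 7.43, 7.35 and 7.08. AL mice 69, 68, 63 and 66 had 7.06, 7.02, 6.80 and 6.74. The lowest aDR mouse therefore lay just above the highest AL mouse, and the groups did not overlap. The difference of 0.62 (SE 0.169, 1.53-fold) had an adjusted p of 0.129. Fkbp5, Tsc22d3 and Sgk1 were thus 3 of the 6 genes with every aDR mouse above every AL mouse, against 4.16% of all genes tested.

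The other 3 genes differed less, and their groups overlapped. Nfkbia had aDR values of 5.76, 5.55, 5.48, 5.63 and 5.88 log2 CPM in mice 61, 62, 64, 65 and 67 against 5.34 to 5.56 in AL mice, a difference of 0.23 (SE 0.0844, adjusted p = 0.229). Errfi1 ran from 5.80 to 5.96 in aDR and from 5.72 to 5.83 in AL mice, with a difference of 0.098 (SE 0.0407, adjusted p = 0.283). Ddit4, the gene with the lowest counts, ran from 3.96 to 4.26 in aDR and from 3.90 to 4.08 in AL mice, with a difference of 0.12 (SE 0.0674, adjusted p = 0.432). Mice 61 and 67 held the first 2 places among aDR mice for all of the 6 genes.

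In a fit of all libraries with the mouse as a block, 6 of the 6 genes passed, as did 1474 of all genes, or 9.44%. The adjusted p was 3.46e-11 for both Fkbp5 and Sgk1, 1.79e-05 for Nfkbia, 0.0228 for Ddit4 and 0.0407 for Errfi1. That fit uses 1 correlation between libraries of a mouse for all genes, 0.0336. For a gene whose mice differ more than that, it counts regions of a mouse as nearly independent, and its adjusted p is too small. Of the variance within groups, the share that lay between mice and not between regions of a mouse was 53.0% for Sgk1, 49.6% for Fkbp5, 41.6% for Nfkbia, 29.5% for Ddit4, 24.4% for Tsc22d3 and 10.9% for Errfi1, against a median of 9.33% over all genes.

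**Figure D2:**
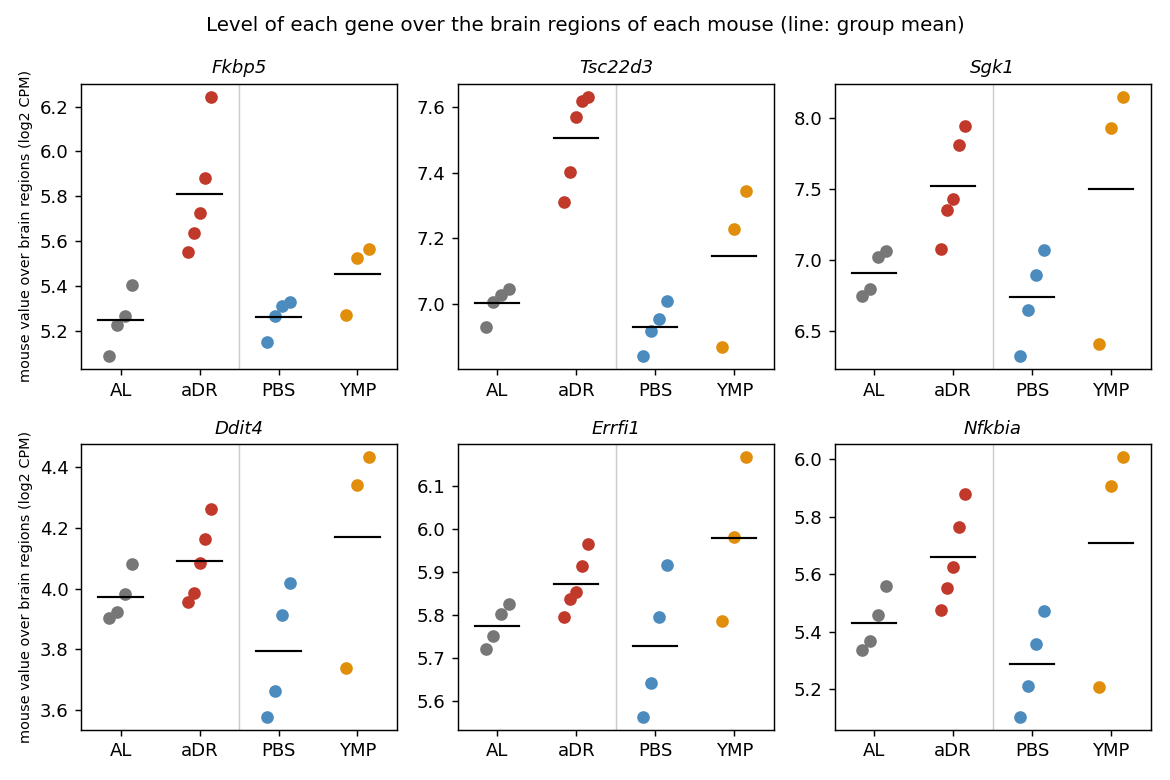
Mouse values (log2 CPM over brain regions, vertical) of each gene in the 4 groups; each point is 1 mouse and lines are group means. In the diet experiment all aDR points of Fkbp5, Tsc22d3 and Sgk1 lie above all AL points, and in the plasma experiment 1 of the 3 YMP mice lies within the range of the PBS mice for each gene.

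The regions were then fitted one by one, to ask where in the brain the genes differed (edgeR quasi-likelihood test, adjusted over all genes of a region). Of the 90 gene and region pairs, 85 had a higher mean in aDR mice and 7 were called. The 7 were Fkbp5 in motor cortex, olfactory bulb and visual cortex, and Tsc22d3 in cerebellum, corpus callosum, motor cortex and visual cortex. Genes called made up 0.251% of those tested in motor cortex, 0.22% in olfactory bulb, 0.202% in visual cortex, 0.0524% in cerebellum and 0.0215% in corpus callosum. They made up 0.0212% in the SVZ, 0.0146% in caudate putamen, 0.00714% in medulla and 0.00707% in choroid plexus, and 0% in the entorhinal cortex, both hippocampal regions, hypothalamus, pons and thalamus, where no gene of any kind was called.

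Fkbp5 rose most clearly in the visual cortex, where aDR mice 61, 62, 64, 65 and 67 had 57.4, 47.6, 57.7, 54.5 and 79.5 CPM and AL mice 63, 66, 68 and 69 had 34.8, 33.1, 33.3 and 30.1. The AL libraries were close together, and each aDR library was well above them (log2 change 0.88, SE 0.120, adjusted p = 0.00126 by edgeR). In the olfactory bulb the same aDR mice had 59.8, 51.8, 53.8, 44.9 and 60.3 CPM against 32.0, 33.4, 38.1 and 35.3 (0.66, adjusted p = 0.00829). In motor cortex they had 54.2, 34.7, 43.1, 38.6 and 66.0 CPM against 28.6, 22.8, 31.0 and 30.1 (0.75, adjusted p = 0.0409). The motor cortex call was lost without aDR mouse 61 or 67 or without any one AL mouse (adjusted p of 0.0936 to 0.141), with DESeq2 (0.0543), and the olfactory bulb call without AL mouse 66 (0.0549).

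The largest difference of Fkbp5, 1.12 on the log2 scale, was in cerebellum, the region with its lowest level. Mice 61, 62, 64, 65 and 67 had 23.8, 15.1, 18.1, 14.1 and 36.4 CPM there, against 9.72, 9.58, 11.2 and 8.90 in AL mice. The groups did not overlap, but the adjusted p was 0.114 by edgeR and the pair was not called. DESeq2 called this pair (adjusted p = 0.00179). In the anterior hippocampus, where Fkbp5 was highest in control brains, the difference was 0.30 and the groups overlapped. Over the 15 regions the difference of Fkbp5 ran from 0.25 to 1.12, with 15 of 15 positive and 6 without overlap. In the pons it was 0.87 with the library of mouse 67 and 0.55 without it.

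Tsc22d3 rose in cerebellum from 155, 162, 178 and 168 CPM in AL mice to 246, 249, 236, 219 and 261 in aDR mice (0.54, SE 0.0649, adjusted p = 0.0115 by edgeR). In visual cortex AL mice had 143, 143, 153 and 140 CPM and aDR mice 217, 195, 191, 182 and 250 (0.52, adjusted p = 0.00445). Motor cortex gave 118, 128, 132 and 131 CPM against 178, 166, 160, 165 and 188 (0.43, adjusted p = 0.00215). The spread within each group was narrow in these 3 regions. In corpus callosum, with 3 AL and 4 aDR libraries, the values were 92.1, 83.7 and 79.5 CPM against 157, 145, 153 and 152 (0.84, adjusted p = 0.0497). That call was lost without any one of its 7 libraries (adjusted p of 0.0725 to 0.376), and the cerebellum call without aDR mouse 61 (0.0521) or AL mouse 66 (0.0700). Its aDR libraries were above all AL libraries in 13 of the 15 regions, the exceptions being choroid plexus and pons. In the pons mouse 67 had 138 CPM, below all 4 AL mice, while the other 4 aDR mice had 249 to 289 against 181 to 242; without the library of mouse 67 the difference in pons was 0.32 instead of 0.18.

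Sgk1 had no called region, with a lowest adjusted p of 0.105 in motor cortex, although 15 of 15 regions were positive and 6 had no overlap. Its unadjusted p was under 0.05 in 12 regions, against 6.24% of all gene and region pairs. In the pons its difference was 0.62 with the library of mouse 67 and 0.77 without it. Its differences were largest in medulla (1.01), in the SVZ, the germinal zone along the lateral ventricle (0.997), and in corpus callosum (0.99). In corpus callosum AL mice 63, 66 and 69 had 227, 240 and 235 CPM, and aDR mice 61, 62, 65 and 67 had 569, 357, 311 and 616. That region had no library of AL mouse 68 or of aDR mouse 64, the aDR mouse with the lowest Sgk1 over the brain. In medulla AL mice had 132, 105, 172 and 163 CPM and aDR mice 61, 62, 64, 65 and 67 had 373, 214, 196, 250 and 394. The aDR mice were all higher in both regions, and mice 61 and 67 stood above the other aDR mice. With DESeq2 in place of edgeR, Sgk1 was called in corpus callosum (adjusted p = 0.0241), SVZ (0.0353) and thalamus (0.0493), where it called 0.0718%, 0.0848% and 0.127% of all genes. DESeq2 called 14 pairs of the 90, against 0.257% of all gene and region pairs. Besides Sgk1 and Fkbp5 in cerebellum, its added calls were Fkbp5 in medulla (adjusted p = 0.00985) and Tsc22d3 in hypothalamus (0.000673), SVZ (0.000123) and thalamus (0.00391).

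Mouse by mouse, aDR mouse 64 was the one in which Sgk1 was least often raised. Its library was above every AL library of the region in 6 of 14 regions, against 14 of 14 for mouse 61 and 13 of 15 for mice 62, 65 and 67. For Tsc22d3 the same count was 13 of 14 for mouse 64, 14 of 14 for mouse 61, 15 of 15 for mice 62 and 65 and 14 of 15 for mouse 67. For Fkbp5 it was 11 of 14 for mice 61 and 64, 12 of 15 for mouse 62, 8 of 15 for mouse 65 and 13 of 15 for mouse 67.

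For Nfkbia 14 of 15 regions were positive, with differences of -0.026 to 0.53, and the pons was the only region without overlap (41.6 to 47.4 CPM in AL and 51.8 to 86.1 in aDR mice, the highest being mouse 67; adjusted p = 0.997 by edgeR). Without the library of mouse 67 the pons difference of Nfkbia was 0.37 instead of 0.53. Errfi1 was positive in 14 of 15 regions (-0.072 to 0.32) and Ddit4 in 12 of 15 (-0.15 to 0.36), and neither had a region without overlap. Of the 90 pairs, 26 had all aDR libraries above all AL libraries, against 1.62% of all gene and region pairs, and 0 had them all below. Regions of a mouse share the animal, so these pairs are not independent of each other. No gene of the 6 passed the test for a diet effect that differs between regions (edgeR F test, 0.0128% of all genes called). Of all 15616 genes in that test, 333 had an unadjusted p under 0.05. At an unadjusted p under 0.05 there was 1 of the 6, Tsc22d3, with an unadjusted p of 0.0473 and an adjusted p of 1.

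**Figure D3:**
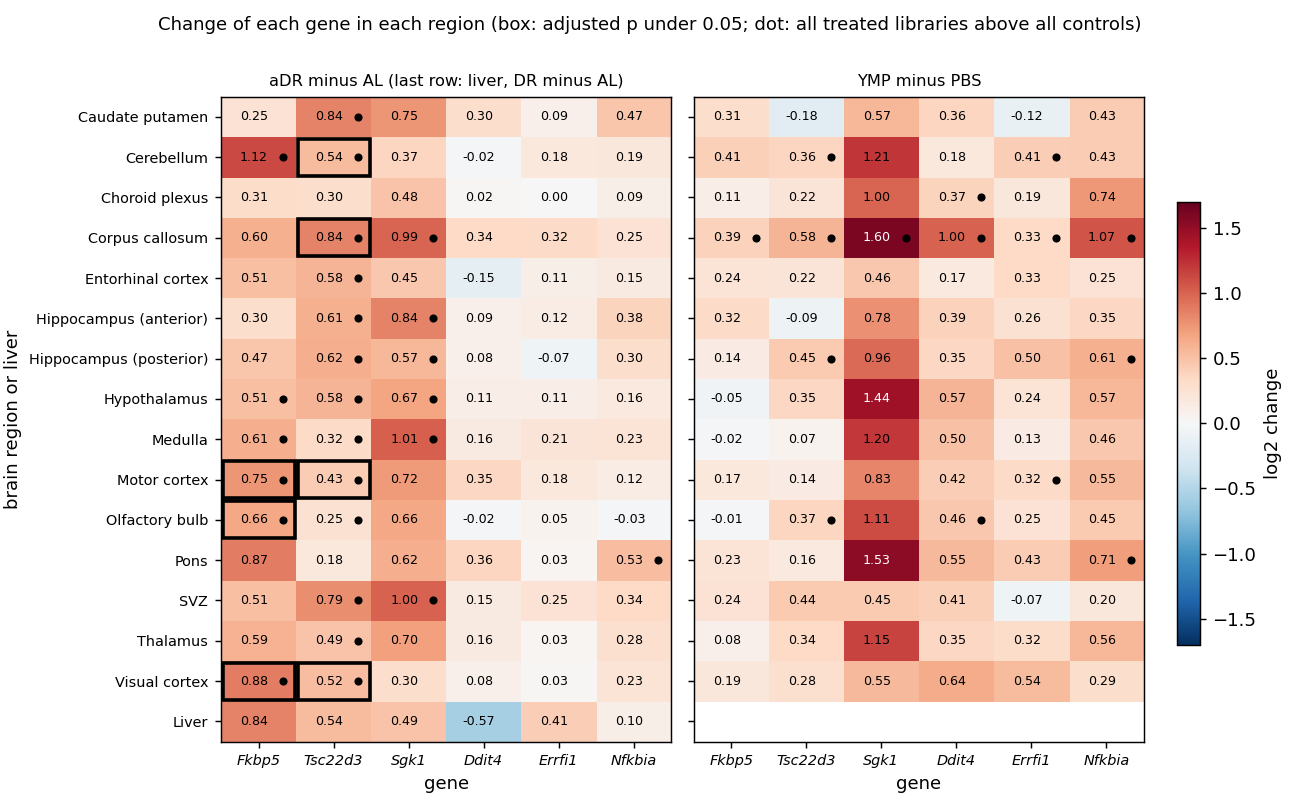
Log2 change of each gene (columns) in each region (rows) for aDR minus AL, with liver as the last row, and for YMP minus PBS; boxes mark adjusted p under 0.05 and dots mark pairs with all treated libraries above all controls. The 7 boxes are in the Fkbp5 and Tsc22d3 columns of the diet panel, and the darkest cell of the plasma panel is Sgk1 in corpus callosum at 1.60.

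In liver of the same female mice, 5 of the 6 genes had a higher mean in DR mice and 0 were called (edgeR), against 0.22% of all genes tested. At an unadjusted p under 0.05 there were 2, Fkbp5 and Tsc22d3, against 1074 of all 11815 genes tested. DESeq2 also called 0. Fkbp5 had 152, 109, 134, 107 and 363 CPM in DR mice 61, 62, 64, 65 and 67, and 121, 93.3, 84.3 and 94.0 in AL mice 63, 66, 68 and 69. Mouse 67 was far above every other mouse, and the remaining DR mice overlapped with AL mouse 63. The difference was 0.84 (SE 0.337, adjusted p = 0.454) with mouse 67 and 0.38 without it. Tsc22d3 had 262, 186, 175, 241 and 322 CPM in DR and 180, 123, 158 and 205 in AL mice, a difference of 0.54 (SE 0.210, adjusted p = 0.429) with overlapping groups.

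Sgk1 in liver was 68.2, 33.8, 39.7, 56.3 and 133 CPM in DR mice 61, 62, 64, 65 and 67 and 42.5 to 58.5 in AL mice (0.49, SE 0.348, adjusted p = 0.779). Ddit4 was the one gene with a lower liver mean in DR mice, at 2.46, 1.43, 2.97, 2.41 and 7.08 CPM against 3.73 to 6.33. Mouse 67 was above every AL mouse for Ddit4 and the other 4 DR mice were below all of them (-0.57, SE 0.403, adjusted p = 0.776). Errfi1 had 1799, 1036, 1149, 1210 and 2738 CPM in DR mice against 970 to 1454, and mice 67 and 61 were highest (0.41, SE 0.283, adjusted p = 0.765). Nfkbia differed by 0.097 (SE 0.202, adjusted p = 0.961), and its lowest DR values were those of mice 61 and 67, at 124 and 130 CPM.

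The diet effect was compared directly between liver and brain on the difference of each mouse's 2 values. The difference between the effects was 0.12 for Fkbp5, 0.025 for Tsc22d3, -0.29 for Sgk1, -0.80 for Ddit4, 0.24 for Errfi1 and -0.13 for Nfkbia. None of the 6 was called (limma, adjusted p of 0.503 or more), against 0.0881% of 11350 genes. At an unadjusted p under 0.05 there was 1, Ddit4 (unadjusted p = 0.0229 by limma), against 911 of the 11350 genes. The similar size of the Fkbp5 and Tsc22d3 differences in liver and brain is thus given with a wide error in liver, where mouse 67 weighs heavily.

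A list of 24 other genes known to respond to glucocorticoids was read in the same diet comparison across the brain. Of the 24, 24 had a higher mean in aDR mice and 8 rose, with a median change of 0.26. Over all genes tested, 46.6% were higher, 0.922% were called in either direction and the median was -0.00623. The 4 with the smallest p were Map3k6, a stress-activated kinase (0.67, adjusted p = 0.0109 by limma), Plin4, a lipid droplet coat protein (2.03, adjusted p = 0.0131), Klf15, a transcription factor of amino acid and glucose metabolism (0.38, adjusted p = 0.0163), and Hif3a, a relative of the hypoxia factors (1.09, adjusted p = 0.0233). The other 4 that rose were Mertk, a receptor for engulfing dying cells (0.39), Zbtb16, a zinc finger repressor (0.57), the clock gene Per1 (0.33) and the arrestin relative Arrdc2 (0.53). The list was put together with earlier results of these data known, and its direction is no independent evidence about the 6 genes. Of the 24 genes, 20 had an entry in the promoter table, and 2 genes had a core site in the window, Sult1a1 and Bcl6, neither of which was called. The looser repeat was found in Map3k6 and Mt1, of which Map3k6 was called.

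The receptors and their machinery gave no call. Of 11 genes for receptors, steroid enzymes and chaperones, 10 were tested, 2 had a higher mean and 0 were called, with a median of -0.054. The glucocorticoid receptor gene Nr3c1 differed by -0.088 (adjusted p = 0.403 by limma) and the mineralocorticoid receptor gene Nr3c2 by -0.15 (adjusted p = 0.338). The co-chaperone gene Stip1, whose product links heat shock proteins, had the smallest p of that list, at -0.14 (adjusted p = 0.0549), followed by Ptges3, another co-chaperone, at -0.077 (adjusted p = 0.216). Hsd11b2, which inactivates corticosterone, was too low to be tested.

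Relatives of the 6 genes gave 1 call. Of 11 tested, 6 had a higher mean and 1 rose, with a median of 0.011, against 0.922% of all genes called. The one that rose was Tsc22d4 (0.23, adjusted p = 0.0261 by limma), from the family of Tsc22d3. Nfkbib, a second NF-kappa-B inhibitor, differed by 0.14 (adjusted p = 0.0823), Nfkbid by -0.11 and Ddit4l, the paralog of Ddit4, by -0.14, and none of these passed.

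In liver, 21 of the 24 response genes were tested, 13 had a higher mean and 3 rose, against 0.22% of all genes called. The 3 that rose were Plin4, from 2.82 ± 1.17 CPM in AL to 18.7 ± 5.16 in DR mice (SD, n = 4 and 5; log2 change 2.80, adjusted p = 0.00495 by edgeR), Zbtb16, from 32.0 ± 8.83 to 99.6 ± 19.6 (1.66, adjusted p = 0.0153), and Il6ra, the interleukin-6 receptor gene (1.06, adjusted p = 0.0245). Plin4 and Zbtb16 were thus called in both tissues, unlike any of the 6 genes. Of 5 liver genes known to respond to glucocorticoids and fasting, none was called: Pck1, the gluconeogenic enzyme, differed by 1.27 (adjusted p = 0.0768), Igfbp1 by 1.26, G6pc by 0.68, Tat by 0.56 and Tdo2 by 0.36.

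**Figure D4:**
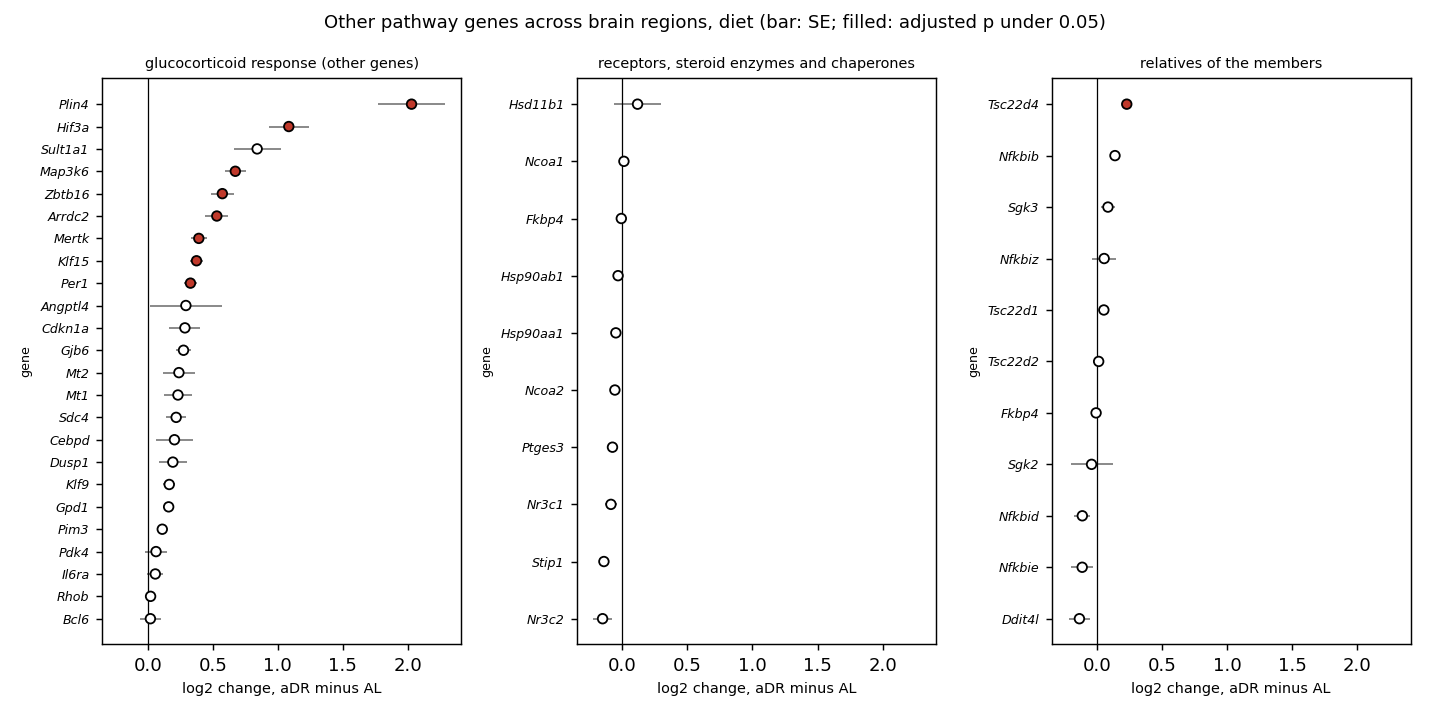
Log2 change across brain regions, aDR minus AL (horizontal), of the other response genes, of the receptors, enzymes and chaperones, and of the relatives of the 6 genes; bars are SE and filled points have an adjusted p under 0.05. All 24 response genes lie to the right of 0 and 8 are filled, while receptors and chaperones sit close to 0.

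Markers of other cells moved with diet as follows. Endothelial markers, whose cells are known to respond to glucocorticoids, were higher in 2 of 8 and fell in 3 (Cldn5 by 0.48, Flt1 by 0.26 and Tek by 0.37 on the log2 scale). Their summed level was 255 to 291 CPM in aDR and 273 to 313 in AL mice. Sums are averaged over the 12 regions with a library of every mouse. Of all genes tested, 0.922% were called in this comparison. All 4 mural cell markers had lower means, with sums of 107 to 121 against 118 to 134. Red blood cell genes were higher in 5 of 5 with a median of 0.93 and 0 called, and their sums were 9.81 to 40.8 against 10.2 to 12.7. Microglial markers had a higher mean in 0 of 6, astrocyte markers in 2 of 5 and oligodendrocyte markers in 4 of 6. Means were higher for 3 of 5 neuronal, 5 of 7 choroid plexus and 1 of 4 fibroblast markers. In each of these lists 0 were called. The part of all these markers in the results for the 6 genes was not tested. Hepatocyte markers were near 0 in brain, with sums of 2.07 to 2.61 CPM in aDR and 2.28 to 3.03 in AL mice.

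After young plasma, the 6 genes all had a higher mean across the brain than after saline, and 0 passed the test (limma on mouse values, 98 libraries). At an unadjusted p under 0.05 there were also 0 of the 6, with a lowest unadjusted p of 0.0534 for Fkbp5. Of 15768 genes tested, 0% were called and 1275 had an unadjusted p under 0.05. edgeR on counts summed per mouse also called 0 of the 6. The largest mean difference was that of Sgk1 and the spread between YMP mice was wide.

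Sgk1 had mouse values of 8.15 and 7.93 log2 CPM in YMP mice 77 and 81, and 6.41 in YMP mouse 73. PBS mice 72, 76, 80 and 84 had 6.90, 7.07, 6.32 and 6.65. Mice 77 and 81 were far above all PBS mice, and mouse 73 was below all but one of them. The difference was 0.76 (SE 0.415, adjusted p = 0.667). Without mouse 73 it was 1.31 (adjusted p = 0.391), and without mouse 77 it was 0.43.

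The same 2 mice led for the other genes. Nfkbia had 6.01 and 5.91 log2 CPM in mice 77 and 81 and 5.21 in mouse 73, against 5.36, 5.47, 5.10 and 5.21 in PBS mice 72, 76, 80 and 84 (0.42, SE 0.196, adjusted p = 0.644). Ddit4 had 4.43, 4.34 and 3.74 in mice 77, 81 and 73 against 3.58 to 4.02 (0.38, SE 0.187, adjusted p = 0.644). Errfi1 had 6.17, 5.98 and 5.79 against 5.56 to 5.92 (0.25, SE 0.114, adjusted p = 0.644). In each of these, mouse 73 lay within the range of the saline mice. Tsc22d3 had 7.23, 7.34 and 6.87 in mice 77, 81 and 73 against 6.84 to 7.01 (0.22, SE 0.111, adjusted p = 0.652). Fkbp5 had 5.56, 5.53 and 5.27 against 5.15 to 5.33 (0.19, SE 0.0830, adjusted p = 0.625). The mouse values of treated mice were all above those of control mice for 0 of the 6 genes, against 4.72% of all genes tested.

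In a fit of all plasma libraries with the mouse as a block, 5 of the 6 genes passed, as did 486 of all genes, or 3.08%. The adjusted p was 8.72e-05 for Nfkbia, 0.000277 for Ddit4, 0.000446 for Sgk1, 0.00328 for Errfi1 and 0.0438 for Tsc22d3. That fit sets the correlation between libraries of a mouse to 0.0769 for every gene. Where the mice differ more than that, as the shares below show, the adjusted p is too small. The share of the spread within groups that lay between mice was 81.6% for Sgk1, 67.6% for Ddit4, 67.2% for Nfkbia, 56.8% for Errfi1, 38.0% for Tsc22d3 and 16.7% for Fkbp5, against a median of 12.4%.

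YMP mice 77 and 81 stood above all saline mice in nearly every region for Sgk1, Ddit4 and Nfkbia, and in fewer regions for Tsc22d3, Errfi1 and Fkbp5. These mice were singled out by the same values, so the counts describe them and are no test. The library of mouse 77 was above all PBS libraries of its region in 15 of 15 regions for Sgk1, Ddit4 and Nfkbia, in 12 for Errfi1 and in 11 for Fkbp5 and Tsc22d3. Mouse 81 was above them in 14 of 15 regions for Sgk1, Ddit4 and Nfkbia, 13 for Tsc22d3, 10 for Errfi1 and 8 for Fkbp5. Mouse 73 was above them in 0 of 14 regions for Sgk1, in 2 for Fkbp5, Ddit4, Errfi1 and Nfkbia, and in 4 for Tsc22d3. The library of mouse 73 from the olfactory bulb was the shallowest of all, with 0.606 M counts, while the median total of its libraries was 6.76 M against 7.53 and 11.5 M for mice 77 and 81.

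By region, 83 of 90 pairs had a higher mean after young plasma, 37 had an unadjusted p under 0.05 and 0 were called (edgeR). Of all gene and region pairs 6.11% had an unadjusted p under 0.05, and pairs of one mouse are not independent. Genes called made up 0.184% in corpus callosum, 0.00738% in cerebellum and 0% in each of the other 13 regions. DESeq2 called 4 pairs, all in corpus callosum: Sgk1 (adjusted p = 2.47e-07), Nfkbia (0.000767), Ddit4 (0.0269) and Tsc22d3 (0.0278). DESeq2 called 2.05% of all genes in that region and 0.462% of all gene and region pairs. All treated libraries were above all controls in 15 of the 90 pairs, against 4.92% of all gene and region pairs.

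Corpus callosum was the region with the largest differences of Sgk1, Nfkbia and Ddit4, and the only region without a library of mouse 73. Sgk1 there had 704 and 715 CPM in the 2 YMP libraries against 305, 169 and 202 in the 3 PBS libraries (1.60, SE 0.240, adjusted p = 0.0644 by edgeR). Nfkbia had 97.5 and 91.3 against 44.9, 51.1 and 32.7 CPM (1.07, adjusted p = 0.0935), and Ddit4 28.4 and 25.6 against 14.4, 9.73 and 15.1 (0.997, adjusted p = 0.148). All 6 genes were without overlap in this region. With 2 libraries against 3 such separation is easily reached, and the share of all genes without overlap in this region is not given here. In the olfactory bulb Sgk1 had 39.4, 115 and 108 CPM in YMP mice 73, 77 and 81 against 49.2, 54.4, 39.1 and 49.2 in PBS mice 72, 76, 80 and 84 (1.11, adjusted p = 0.0637 by edgeR). The library of mouse 73 was shallow and was also the only YMP library within the PBS range. Without it, mice 77 and 81 alone stood for YMP and the pair was called (adjusted p = 0.000645 by edgeR). Depth and the lower level of mouse 73 cannot be told apart here.

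Over the 15 regions the difference ran from 0.45 to 1.60 for Sgk1, 0.20 to 1.07 for Nfkbia, 0.17 to 0.997 for Ddit4, -0.12 to 0.54 for Errfi1, -0.18 to 0.58 for Tsc22d3 and -0.054 to 0.41 for Fkbp5. No gene of the 6 passed the test for a plasma effect that differs between regions (edgeR F test), where 0.824% of all genes were called, and 0 of the 6 had an unadjusted p under 0.05. Of the 24 other response genes, 18 had a higher mean after young plasma and 0 were called by limma, with a median of 0.15 against -0.00368 over all genes.

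**Figure D5:**
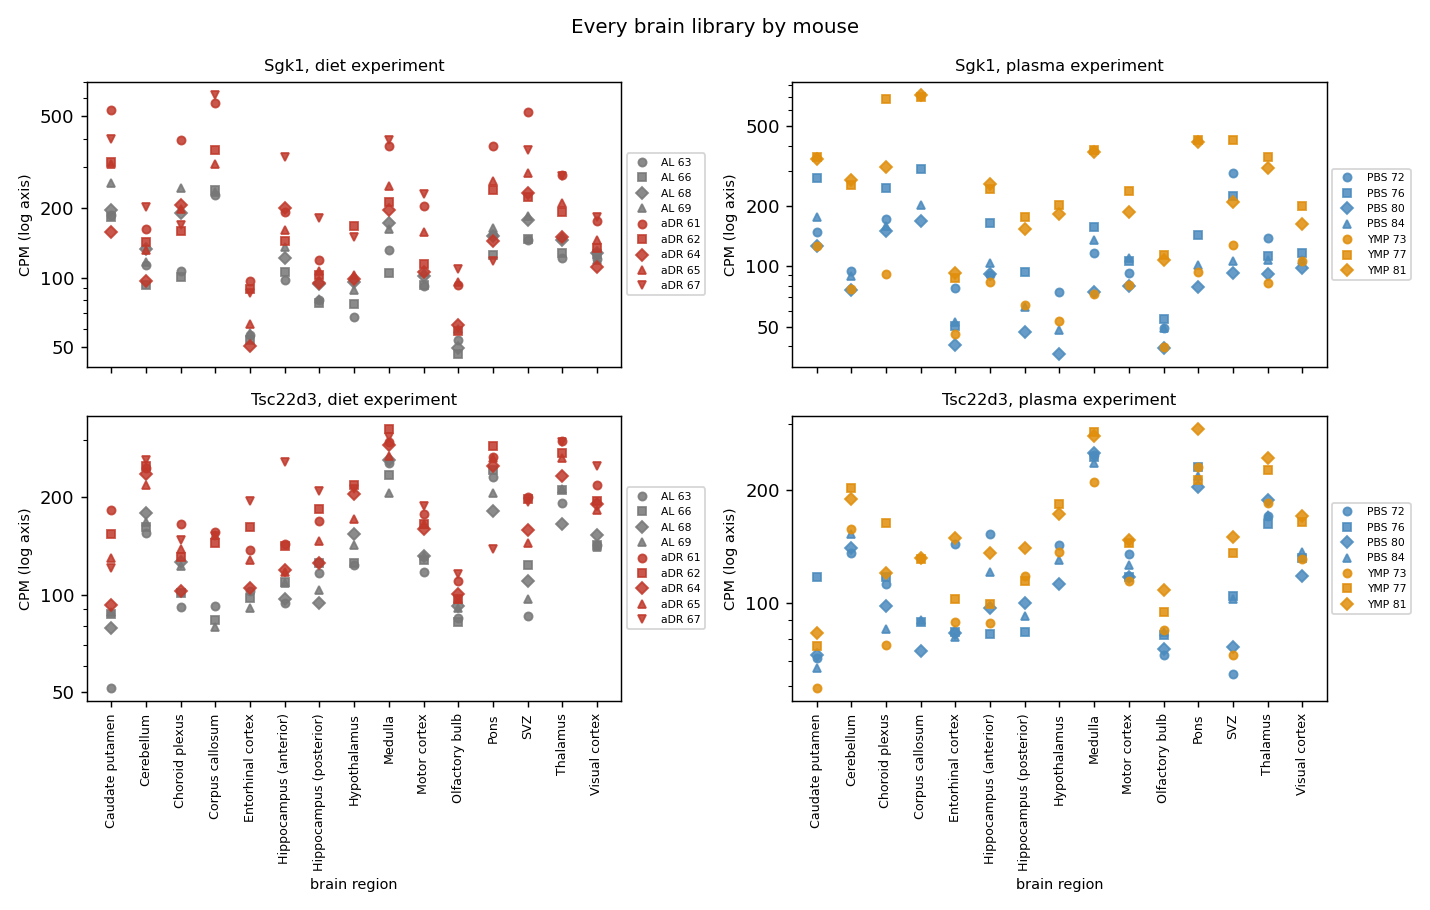
CPM (log axis, vertical) of Sgk1 and Tsc22d3 in every brain library, by region and with 1 symbol per mouse. For Sgk1, YMP mice 77 and 81 lie above the PBS mice in 15 and 14 of 15 regions while YMP mouse 73 lies above them in 0 of 14; for Tsc22d3 the aDR libraries lie above the AL libraries in 13 of 15 regions.

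Markers of other cells also differed in mean with plasma, but 0 genes of any kind were called across the brain. Sums are averaged over the 9 regions with a library of every mouse. The summed astrocyte markers were 1454 to 1513 CPM in YMP and 1651 to 1730 in PBS mice, without overlap. Of these 5 markers, 1 had a higher mean, and only Gfap (-0.36) was itself without overlap. Markers of oligodendrocytes, the cells that make myelin, had a higher mean in 0 of 6. The 7 choroid plexus markers had a higher mean in 0 of 7, with a median of -1.16, and their sums were 34.9, 1855 and 787 CPM in YMP mice 73, 77 and 81 against 1484 to 3212 in PBS mice. Mouse 73 was thus the lowest for choroid plexus markers, as it was for the 6 genes among YMP mice. The part of these markers in the results was not tested. Without choroid plexus libraries the Sgk1 difference was 0.77 and was not called.

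The diet effect of each gene was tested directly against its plasma effect, with the limit that experiment and sex cannot be told apart. The diet effect minus the plasma effect was 0.37 for Fkbp5 (adjusted p = 0.420 by limma), 0.29 for Tsc22d3 (0.409), -0.14 for Sgk1 (0.933), -0.26 for Ddit4 (0.631), -0.15 for Errfi1 (0.637) and -0.19 for Nfkbia (0.772). None was called, against 0.168% of 16063 genes. At an unadjusted p under 0.05 there was 1 of the 6, Tsc22d3 (0.0499 by limma), against 1952 of the 16063 genes. The genes in order of size were Sgk1, Fkbp5 and Tsc22d3 for diet and Sgk1, Nfkbia and Ddit4 for plasma.

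Within groups, the genes varied together in pairs. After the mean of each region and treatment was removed, Sgk1 and Tsc22d3 had a Pearson r of 0.57 over the 131 diet libraries, Sgk1 and Nfkbia 0.51, Sgk1 and Errfi1 0.50, and Fkbp5 and Ddit4 0.45. Fkbp5 and Tsc22d3 had -0.12, so the 2 genes with called regions did not vary together within groups. Over the 98 plasma libraries r was 0.83 for Sgk1 and Nfkbia, 0.74 for Sgk1 and Ddit4, and -0.17 for Fkbp5 and Tsc22d3. These libraries share mice and depth, and the values are descriptions without a test.

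The genes most like each of the 6 over diet brain libraries, as deviations from region means with treatment left in, included genes of the response list for 4 of them. Fkbp5 was most like Per2 (r = 0.73), Mertk (0.71) and Sult1a1 (0.69). Tsc22d3 was most like Etnppl (0.87), Klf15 (0.79) and Plin4 (0.79), and Sgk1 like Adipor2 (0.80), Fmo2 (0.79) and Plin4 (0.77). Plin4 thus stood in the lists of both Tsc22d3 and Sgk1. Ddit4 was most like Cebpd (0.54), Zbtb16 (0.49) and Nfkbia (0.48), Errfi1 like Thap12 (0.67), Susd6 (0.64) and Add3 (0.63), and Nfkbia like Pnpla2 (0.70), Eci2 (0.65) and Prdx4 (0.64). All r are over the same 131 libraries and include the diet difference. The response list was put together with earlier results of these data known, so its genes among these are no independent evidence.

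Over the 16 AL means of brain regions and liver, the closest genes were others. Fkbp5 was most like Slc2a5 (r = 0.89), Ap3b1 (0.85) and Hnrnpab (0.85), Tsc22d3 like Cmc2 (0.92), the co-chaperone gene Fkbp4 (0.92) and Tmem41b (0.91), and Sgk1 like Scn4b (0.92), Map7 (0.90) and Fbxw15 (0.90). Ddit4 was most like Lama2 (0.93), Ahcyl2 (0.92) and Cntnap5c (0.90). For Errfi1 (Eva1a, Cmah and Nop9, all 0.99) and Nfkbia (Echs1 0.98, Hadh 0.97 and Nfe2l2 0.97) the likeness rests on the high liver value. Each r is over 16 points that share mice.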

How the data were processed

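The authors deposited raw read counts per gene. The submitters' processing notes name Trim Galore 0.3.7, STAR 2.5.3a, DESeq2 and the GRCm38 build; the counting program and annotation are not given in the sources used here. Per the labels, RNA from homogenised tissue was made into cDNA by Smart-Seq2 and into unstranded libraries with Nextera XT. Libraries were grouped by region, treatment and mouse; the mouse number marks 1 animal in all its regions, and pairs nothing across treatments. CPM used TMM-scaled library sizes. Regions were fitted with edgeR 4.0.16 (R 4.3.3; filterByExpr, minimum count 10, minimum total 15). Across the brain, limma 3.58.1 was fitted on mouse values (log2 CPM, prior count 2). A gene was called at a Benjamini-Hochberg adjusted p under 0.05 over all genes tested. DESeq2 1.42.0 was an alternative, as were other normalisation, filters, prior counts, blocks and leaving out mice. Models were tested on simulated counts. Of the lists, the 4 genes with the smallest p across the brain in the diet comparison were named, and called list genes and markers were added after their values were seen; likeness names the 3 genes of highest r. The 6 genes and the lists were chosen with earlier results of these data known. No protein sequences were used here.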

Additional observations from a re-analysis of the deposited data

Results flagged for a closer look

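Groups of 4 or 5 member values were checked for a sample far from the others (Dixon's ratio at 95%). The 3 YMP mice were too few for this check, so mouse 73 could not be flagged. Of 30 groups, which share mice, 2 had such a sample, and chance alone gives about 1 in 20, or 1.5 groups. Both were in liver of restricted mice and both were mouse 67. Fkbp5 was 363 CPM in the liver of DR mouse 67, with 107 to 152 in the other DR mice. Ddit4 was 7.08 CPM in the same library, with 1.43 to 2.97 in the others. The cause was not tested.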

How the results depend on the processing

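Alternatives changed how many of the 6 genes were called more than their direction. The count across the brain in the diet comparison, 1 as reported, was 6 under voom with no replicate block and 6 with the mouse as a replicate block; leaving out 1 mouse gave 0 to 1. In the plasma comparison the count of 0 became 6 with no replicate block and 5 with the replicate block. With no block, regions of a mouse are treated as independent, and with the block nearly so for these genes. Both counts are therefore too generous. With the block, 9.44% of all genes were called for diet and 3.08% for plasma, and the share with no block is not given here. Of the diet gene and region pairs, 7 as reported, DESeq2 called 14 and leaving out 1 mouse gave 3 to 8, with 3 without AL mouse 66 and 4 without aDR mouse 61. For the plasma pairs, 0 as reported, DESeq2 called 4, no filter on low counts gave 5, leaving out libraries under 2 M counts (chosen after seeing the data) gave 1, and leaving out 1 mouse gave 0 to 4, with 4 without PBS mouse 84. The liver difference of Nfkbia turned to -0.016 without DR mouse 64 and to -0.0086 without AL mouse 63, within a range of -0.016 to 0.20 over all mice left out. The counts of 0 in liver, for liver against brain, for diet against plasma and for region by treatment stayed at 0 under every alternative run. Fkbp5 in visual cortex and Tsc22d3 in motor and visual cortex were called under every alternative run for them; Tsc22d3 in corpus callosum kept its call in 2 of 10 and Fkbp5 in motor cortex in 5 of 12. The causes were not tested. Ddit4 had the fewest counts, with a median of 135; how depth limits the genes was not tested.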
